A study of Mus musculus with 32 samples.

Results

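Late 2-cell mouse embryos cultured with trichostatin A (TSA), an inhibitor of histone deacetylases (HDACs), were compared with late 2-cell embryos cultured with the solvent DMSO. The comparison took every total RNA-seq library whose title names the late 2-cell stage of the TSA experiment, which gave 4 libraries, 2 of TSA-treated and 2 of DMSO-treated embryos, out of 16 RNA-seq libraries and 32 samples in the series. All 4 came from wild-type (WT) embryos made by in vitro fertilization of oocytes of B6D2F1/J females with sperm of B6D2F1/J males, with parents aged 6 to 8 weeks, and cultured in KSOM medium. TSA was present at 50 nM from 8 to 28 h after fertilization, and the control embryos had DMSO over the same window. The other RNA libraries of the series come from zygotes and from 2-cell embryos, early or late, that had A-485, an inhibitor of the acetyltransferases p300 and CBP, or DMSO, and they are used below only as a reference. Each library is a pool of embryos in which fewer cells, less RNA per cell and a changed make-up of the RNA cannot be told apart, and nothing in the labels says that replicates came from separate matings or days, so p-values measure only the spread between these libraries.

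The mammalian embryo starts life on RNA and protein stored in the oocyte, and the mouse genome is switched on in a minor wave in the zygote and early 2-cell embryo and in a major wave in the late 2-cell embryo. The major wave supplies mainly housekeeping functions, such as ribosome assembly, RNA processing and transcription, while the minor wave includes multicopy genes such as the Zscan4 family. HDACs remove acetyl groups from histone tails, a mark that accompanies active promoters and enhancers, and TSA blocks class I, II and IV enzymes but not the NAD-dependent sirtuins.

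The TSA libraries held 18722215 and 19517993 estimated counts and the DMSO libraries 26531532 and 24694571. A gene reached 1 FPKM (fragments scaled to transcript length and to mapped fragments, a level per length) in 15499 and 15670 cases after TSA and in 12968 and 13021 cases in DMSO. The 20 most abundant genes took 25.7 and 27% of the counts after TSA and 20.8 and 20.4% in DMSO, and mitochondrially encoded genes took 3.66 and 3.72% against 2.71 and 2.39%. All 11 genes listed as late 2-cell embryo markers and found in the files were above 5 FPKM in each of the 4 libraries, from Zscan4c at 8.13 and 11.8 FPKM to Pou5f1 at 136 and 139.6 FPKM in DMSO. Such levels do not tell the stage. Zscan4c was at 82.8 and 83.7 FPKM in early 2-cell DMSO embryos and Ooep at 240 and 232 in DMSO zygotes, while Nr5a2 and Klf5 were higher in late 2-cell DMSO embryos than at both earlier stages.

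After TSA, genes that DMSO embryos barely transcribed gained RNA, while abundant genes of ribosome assembly, RNA processing and translation lost it. Of 23429 genes tested with edgeR's quasi-likelihood test, 3237 (13.8%) were called up and 3247 (13.9%) called down, where a call needed a Benjamini-Hochberg adjusted p under 0.05, a change of at least 2-fold and a mean of at least 1 FPKM in either group. In 3215 of the genes called up and 3180 of those called down the TSA and DMSO libraries did not overlap in FPKM. These genes were selected for a change between the same libraries, and the share among all genes is not given, so this adds no support to the calls. The gains were the larger changes, with a median log2 fold change of 2.69 against -1.78 for the losses and 0.13 for all genes tested. A change of at least 16-fold was found for 852 genes called up and 107 called down.

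**Figure D1:**
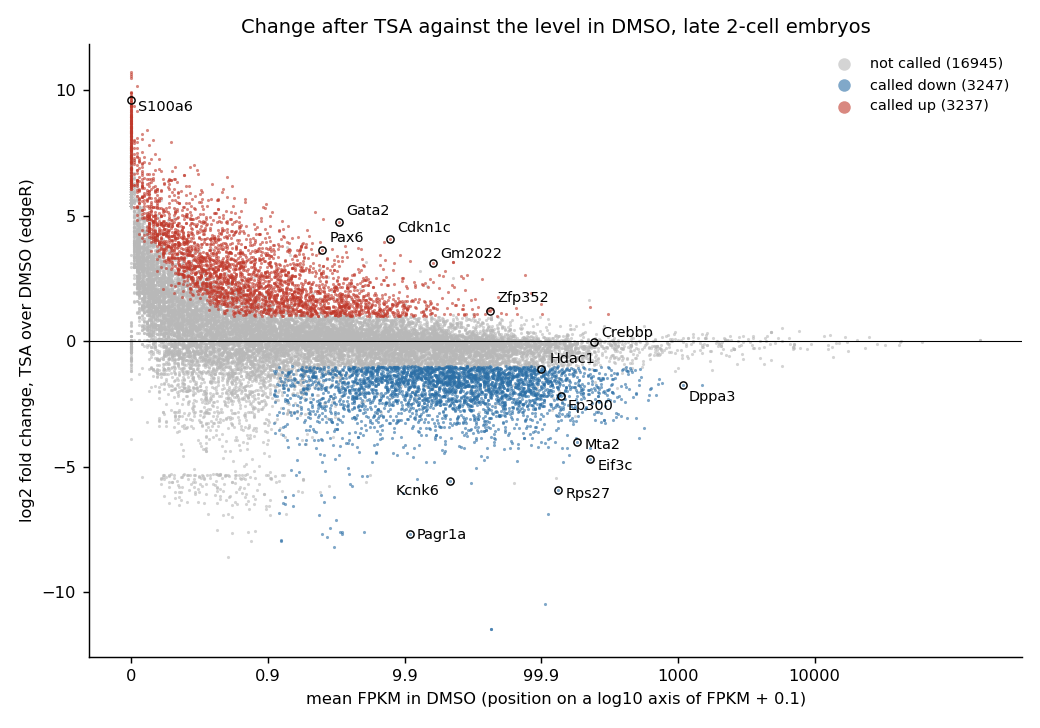
Log2 fold change of TSA over DMSO from edgeR (vertical axis) against the mean FPKM of the 2 DMSO libraries (horizontal axis, log10 of FPKM + 0.1, labelled in FPKM), 1 point for each of 23429 genes, with genes called up in red and called down in blue. The 3237 red genes lie mainly at low DMSO levels and the 3247 blue genes mainly above 5 FPKM, and the rule of at least 1 FPKM keeps genes under 1 FPKM in DMSO from being called down.

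The 2 directions fell on different genes by level. Of the genes called up, 65.1% had a mean under 1 FPKM in DMSO, and 467 were under 0.1 FPKM in both DMSO libraries. Of the genes called down, 88.8% still had at least 1 FPKM after TSA, and 29 were under 0.1 FPKM in both TSA libraries. Among genes at 20 to 100 FPKM in DMSO, 40.2% were called down and 1.34% up, whereas among those at 1 to 5 FPKM 12.1% were called down and 18.3% up. Genes called up took 6.09 and 5.99% of all counts after TSA against 1.1 and 1.16% in DMSO, and genes called down took 11 and 10.6% against 28.7 and 28.7%. Long noncoding RNAs, of which 2887 were tested, were called up in 295 cases and down in 97, while protein-coding genes were called up in 2651 and down in 2876 of 16826 cases.

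FPKM divides by all mapped fragments and edgeR's scaling (TMM) does not, and with total counts in place of TMM the median change of all genes was 0.35 higher on the log2 scale. A gene such as Crebbp, with 318 and 336 FPKM after TSA and 233 and 251 in DMSO, therefore had an edgeR log2 fold change of -0.03, and only fold changes from edgeR are called below. Under total-count scaling 63.3% of the calls were up and under scaling to mitochondrial genes 44.1%, against 49.9% with TMM.

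The genes for the enzymes that TSA blocks changed in both directions. Among class I HDACs, Hdac1 had 61 and 74 FPKM after TSA and 88.8 and 109 in DMSO, and fell with a log2 fold change of -1.10 ± 0.11 (SE, edgeR adjusted p = 1.33e-05). Hdac3 rose from 0.55 and 0.47 to 5.23 and 4.16 FPKM (2.89 ± 0.34, adjusted p = 4.60e-05). Hdac2 had 78.3 and 73.8 FPKM after TSA against 38.9 and 35.3, and its log2 fold change of 0.56 ± 0.09 was below the cutoff of 2-fold, and Hdac8 had 2.49 and 3.47 FPKM against 2.2 and 1.97 and was not called. Hdac7 and Hdac11, of class II and IV, rose from under 1 FPKM in both DMSO libraries (4.37 and 4.38), and Hdac4 fell (-1.15). Hdac6, the cytoplasmic tubulin deacetylase, had 15.3 and 14 FPKM against 14.3 and 14.8 and was not called.

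Sirtuins and the machinery that writes and reads acetylation were called down more often than up. The shares called down were 41.7% of acetyltransferases, 43.8% of acetyl-lysine readers and 25.7% of corepressor subunits. These lie above the 13.9% of all genes tested, but near or below the 40.2% of genes at 20 to 100 FPKM in DMSO. Whether these lists differ from other genes of their level was not tested. Of 7 sirtuins, 4 fell and 1, Sirt2, rose, a call that was lost without either TSA library or without DMSO replicate 2, and Sirt1 had 27.8 and 28.9 FPKM after TSA against 149.7 and 168 in DMSO (-2.93 ± 0.08, edgeR adjusted p = 2.54e-09). Of 12 histone acetyltransferases, 5 fell and none rose, with a median log2 fold change of -0.71. Ep300, the gene for p300, fell from 137 and 141 to 38.9 and 40.6 FPKM (-2.17 ± 0.06, adjusted p = 2.81e-09), and Kat2b and Kat7 fell as well (-3.48 and -2.03). Crebbp, the gene for the paralogue CBP, was not called, and its log2 fold change of -0.03 turned positive under total-count scaling. Of 16 readers of acetyl-lysine, 7 fell, among them Brd8 (-2.53) and Atad2 (-2.02), and none rose. Of 35 subunits of HDAC corepressor complexes, 9 fell and 1, Chd5, rose. Mta2, a subunit of the NuRD deacetylase complex, dropped from 177 and 189 to 18.1 and 16.7 FPKM (-4.02 ± 0.08, adjusted p = 1.11e-09), and the LSD1 demethylase gene Kdm1a fell by less (-1.74).

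Genes that make ribosomes had the highest shares called down of the functional lists. All 84 cytoplasmic ribosomal protein genes had a log2 fold change below 0, and 78 of them were called down and none up, with a median of -2.07 against 0.13 for all genes. Their summed level was 4595 and 4481 FPKM after TSA and 12906 and 13036 in DMSO. Rps27 showed the largest fall, from 133 and 135 to 2.81 and 2.8 FPKM (-5.94 ± 0.25, edgeR adjusted p = 2.26e-08). Rpl24 (-3.90) and Rps29 (-3.84), of the large and the small subunit, followed, and Rpl41, Rplp1 and Rplp2 were 3 of the 5 protein-coding genes with the largest loss in FPKM among those called down, Rplp2 going from 716 and 667 to 193 and 214. The other two were Dppa3 and Set, which encodes an inhibitor of phosphatase 2A and of histone acetylation (-2.16). The 6 members not called were Rpl3l, Rpl5, Rpl7a, Rpl22l1, Rps12 and Rps27l, with log2 fold changes from -1.35 for Rpl3l to -0.60 for Rpl5, and they are named after their values were seen, as the exceptions. Ribosomal protein genes have many processed pseudogenes, so the split of reads between a gene and its copies is uncertain.

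Ribosome biogenesis factors, which transcribe, cut and fold ribosomal RNA in the nucleolus, lost RNA as well. Of 108 members, 100 were called down and none up, all 108 had values below 0, and the median was -2.16. Fbl, the methyltransferase of box C/D particles, fell from 87 and 84.9 to 7.91 and 7.51 FPKM (-3.86 ± 0.12, edgeR adjusted p = 5.83e-09). Noc2l, a nucleolar assembly factor, fell from 73.7 and 74.7 to 7.15 and 6.92 FPKM (-3.86 ± 0.10) and Utp4, of the small subunit processome, from 28.1 and 28.1 to 2.7 and 3.35 (-3.64 ± 0.19). Of 28 RNA polymerase subunit genes 19 fell and none rose, including Polr3b (-2.94) and Polr3e (-3.09) of polymerase III. Translation initiation and elongation factors fell in 45 of 71 cases and rose in 3. Eif3c, a core subunit of the initiation factor that docks on the small ribosomal subunit, had 8.98 and 10.3 FPKM after TSA and 217 and 241 in DMSO (-4.69 ± 0.09, adjusted p = 1.11e-09).

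**Figure D2:**
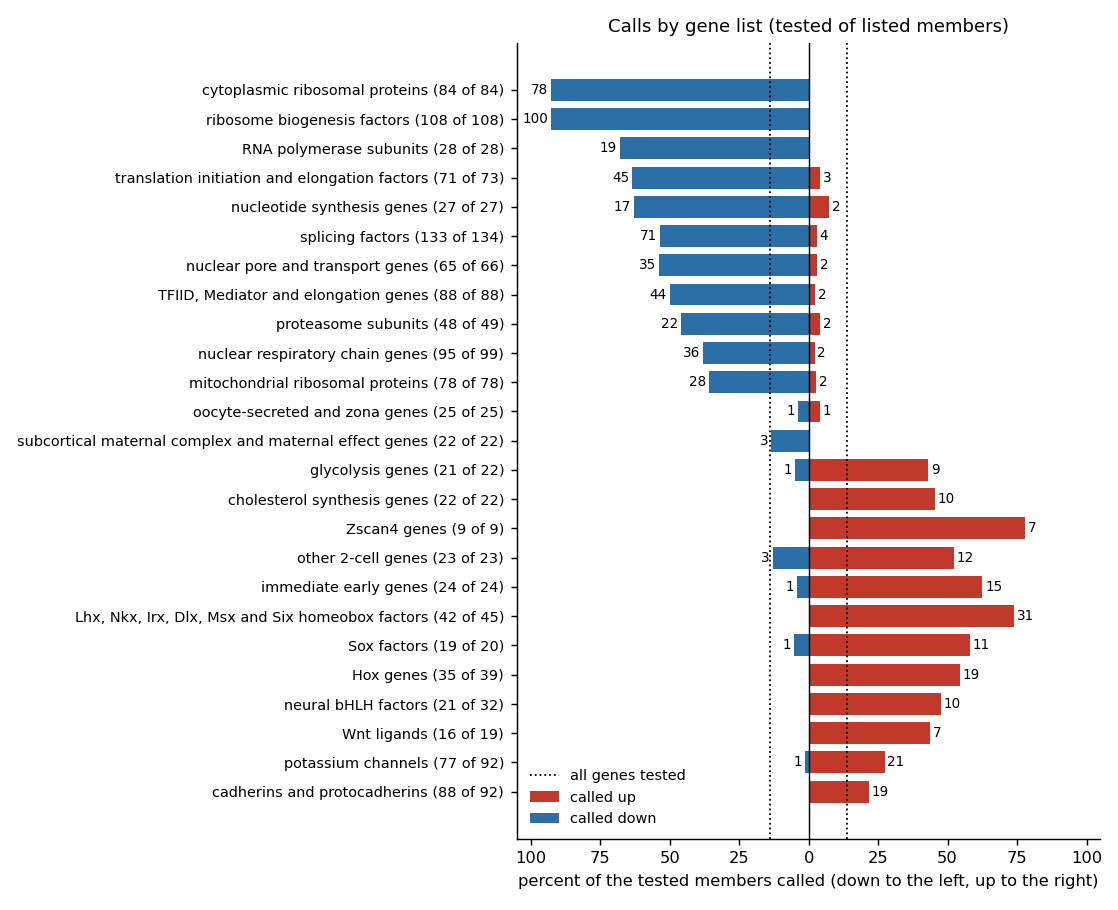
Percent of the tested members of 25 gene lists called down (blue, to the left) and up (red, to the right) after TSA, with the number of members at each bar, the tested and listed members in brackets, and dotted lines at the share of all genes called in each direction. Ribosomal proteins (78 of 84 down) and ribosome biogenesis factors (100 of 108 down) stand at one end, and homeobox factors (31 of 42 up) and Zscan4 genes (7 of 9 up) at the other, while oocyte genes stay at or below the dotted lines.

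The losses extended to splicing, transcription, nuclear transport and protein turnover. For comparison, 13.9% of all genes tested and 40.2% of those at 20 to 100 FPKM in DMSO were called down. Of 133 splicing factor genes 71 fell and 4 rose (median -1.06), and the U11/U12 component Snrnp35 went from 60.5 and 61.4 to 5.3 and 4.12 FPKM (-4.04 ± 0.16, edgeR adjusted p = 1.66e-08). TFIID, Mediator and elongation genes fell in 44 of 88 cases and rose in 2, and Taf5l (-3.06) and Med11 (-3.10) were among those that fell. Nuclear pore and transport genes fell in 35 of 65 cases, led by the import receptor Ipo7, which went from 96.2 and 94 to 7.74 and 5.97 FPKM (-4.22 ± 0.13, adjusted p = 6.10e-09). Proteasome subunits fell in 22 of 48 cases (median -0.82), with the catalytic subunit Psmb5 at 1.04 and 0.49 FPKM after TSA against 14.8 and 13.6 (-4.82 ± 0.36), while the immunoproteasome subunit Psmb9 rose (5.62). Nuclear genes of the respiratory chain fell in 36 of 95 cases and mitochondrial ribosomal proteins in 28 of 78, with medians of -0.77 and -0.53. The 13 mitochondrially encoded genes had a median of 0.19, and 1 of them, mt-Co3, was called up, with 481 and 1184 FPKM after TSA against 245 and 374, a call that was lost without TSA replicate 2 (0.28) or DMSO replicate 1 (0.80) and with DESeq2.

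Nucleotide synthesis genes were called down in 63% of cases, beside 13.9% of all genes and 40.2% of those at 20 to 100 FPKM in DMSO. Cyclin and cell cycle kinase genes (40%) and replication genes (34%) lay above the first of these shares but near or below the second. Of 30 cyclin and cell cycle kinase genes 12 fell and 4 rose. Cdk1, the kinase that drives entry into mitosis, fell from 295 and 304 to 88.3 and 79.5 FPKM (-2.39 ± 0.09, edgeR adjusted p = 1.49e-08), with Cdc20 (-2.52) and Plk1 (-2.60), which act later in mitosis. Ccnd2, a G1 cyclin, rose from 0.08 and 0.01 to 4.26 and 4.76 FPKM (8.03 ± 0.46), and Ccnb3 and Cdc25a rose (1.78 and 1.08). Replication licensing and fork genes fell in 17 of 50 cases, among them Gins3 (16.5 and 16 to 0.68 and 0.78 FPKM) and the licensing factor Cdt1 (-2.29). Nucleotide synthesis genes fell in 17 of 27 cases, with the pyrimidine enzyme Cad (-2.75) and the purine enzymes Adsl (-3.24) and Impdh1 (-3.08) below DMSO.

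Lists of oocyte and maternal effect genes held few calls, and the factors of maternal RNA decay held more. Of 25 oocyte-secreted and zona genes, Zp3 was called down (-1.08), Sohlh1 was called up (2.45, not without TSA replicate 2) and 23 were not called, with a median of -0.07. Gdf9, an oocyte growth factor, had 61.6 and 61 FPKM after TSA and 51.1 and 55.3 in DMSO (-0.16 ± 0.09, edgeR adjusted p = 0.198). Of 22 subcortical maternal complex and maternal effect genes 3 fell (Trim28, Ago2 and Zar1l) and none rose. That is 13.6%, beside 13.9% of all genes and 40.2% of those at 20 to 100 FPKM in DMSO. Factors of maternal RNA decay fell in 9 of 29 cases and rose in 2, with the deadenylase scaffold Cnot1 (-2.01) and the m6A reader Ythdf2 (-2.53) below DMSO. Their share called down, 31%, lay above that of all genes but below that of genes at 20 to 100 FPKM. Median levels in DMSO were 28.2 and 33.7 FPKM for the decay factors and 33.1 and 31.1 for the maternal effect list. Level was not matched.

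The promoters of the 2 directions differed in their letters. For protein-coding genes with exactly 1 promoter entry in RefSeq (build GRCm38.p6, 250 bases before to 50 after the start), the ETS core CCGGAAG stood on either strand in 28.8% of 1884 promoters called down, 7.25% of 1655 called up, 18.9% of 8038 expressed genes and 9.12% of all 22862 promoters of the table. A ratio of observed to expected CpG of at least 0.6 was found in 84.6% of promoters called down, 57.4% of those called up and 73.1% of those expressed. The NRF1 letters GCATGCGC followed the same order, with 8.28, 2.84 and 5.74%. CCAAT stood in 37.1% of promoters called down, 47.6% of those called up, 41.3% of those expressed and 38.2% of the table. These shares are descriptions of the letters, and the called genes also differ in level, which was not matched here.

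To show the sites, 3 of the named genes with large falls, at 10 FPKM or more in DMSO, were picked because they hold the ETS letters (CCGGAAG, or its complement CTTCCGG, in capitals) in the 150 bases before the RefSeq start, read 5′ to 3′ on the gene's strand in GRCm38.p6. They are Eif3c (chr7:126566367-126566516, minus strand), Mta2 (chr19:8941770-8941919, plus strand), where matches on both strands overlap, and Ipo4 (chr14:55635685-55635834, minus strand), an import receptor gene.
Eif3c: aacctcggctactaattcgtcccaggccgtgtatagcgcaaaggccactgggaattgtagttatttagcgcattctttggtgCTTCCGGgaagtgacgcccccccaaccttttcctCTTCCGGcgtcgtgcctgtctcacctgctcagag
Mta2: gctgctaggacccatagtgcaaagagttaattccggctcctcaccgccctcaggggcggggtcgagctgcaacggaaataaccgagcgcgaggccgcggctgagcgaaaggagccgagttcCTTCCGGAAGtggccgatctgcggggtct
Ipo4: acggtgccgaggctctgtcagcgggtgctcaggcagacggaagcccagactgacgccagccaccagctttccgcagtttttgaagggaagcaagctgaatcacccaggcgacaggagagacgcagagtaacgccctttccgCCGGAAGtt

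For the gains, the same window is shown for 3 of the named genes with large rises, at 10 FPKM or more after TSA, that were picked because they hold CCAAT upstream, with CCAAT or its complement ATTGG in capitals. Grhl3 (chr4:135573633-135573782, minus strand) encodes an epithelial transcription factor, Lipa (chr19:34527475-34527624, minus strand) the lysosomal acid lipase and Kcnj10 (chr1:172341060-172341209, plus strand) a glial potassium channel.
Grhl3: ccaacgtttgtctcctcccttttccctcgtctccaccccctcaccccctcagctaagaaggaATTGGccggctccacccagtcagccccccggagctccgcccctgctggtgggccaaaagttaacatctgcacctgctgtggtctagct
Lipa: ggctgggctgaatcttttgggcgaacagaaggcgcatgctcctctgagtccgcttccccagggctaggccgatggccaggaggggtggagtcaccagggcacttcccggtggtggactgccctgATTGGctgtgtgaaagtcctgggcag
Kcnj10: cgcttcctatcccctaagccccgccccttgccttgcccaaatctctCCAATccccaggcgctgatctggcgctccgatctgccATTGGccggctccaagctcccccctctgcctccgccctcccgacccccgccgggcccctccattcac

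Open chromatin at earlier stages also differed between the directions. Peaks of ATAC-seq, an assay of accessible DNA, in early 2-cell DMSO embryos lay within 1 kb of a start site for 71.8% of 2876 protein-coding genes called down (95% Wilson interval 70.1 to 73.4%, for counting error only) and for 25.1% of 2651 called up (23.5 to 26.8%). Expressed genes that were not called had a peak in 49.6% of 7381 cases. Of the 347 protein-coding genes called up from under 0.1 FPKM in both DMSO libraries, 24 (6.92%, 4.69 to 10.1%) had one. That set was chosen for being silent in DMSO, and silent genes that were not called were not counted for comparison. The genes called up and called down also differ in DMSO level, which was not matched here. In the late 1-cell peak list the shares were 45.7% for genes called down, 41.3% for expressed genes not called and 30.6% for genes called up.

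**Figure D3:**
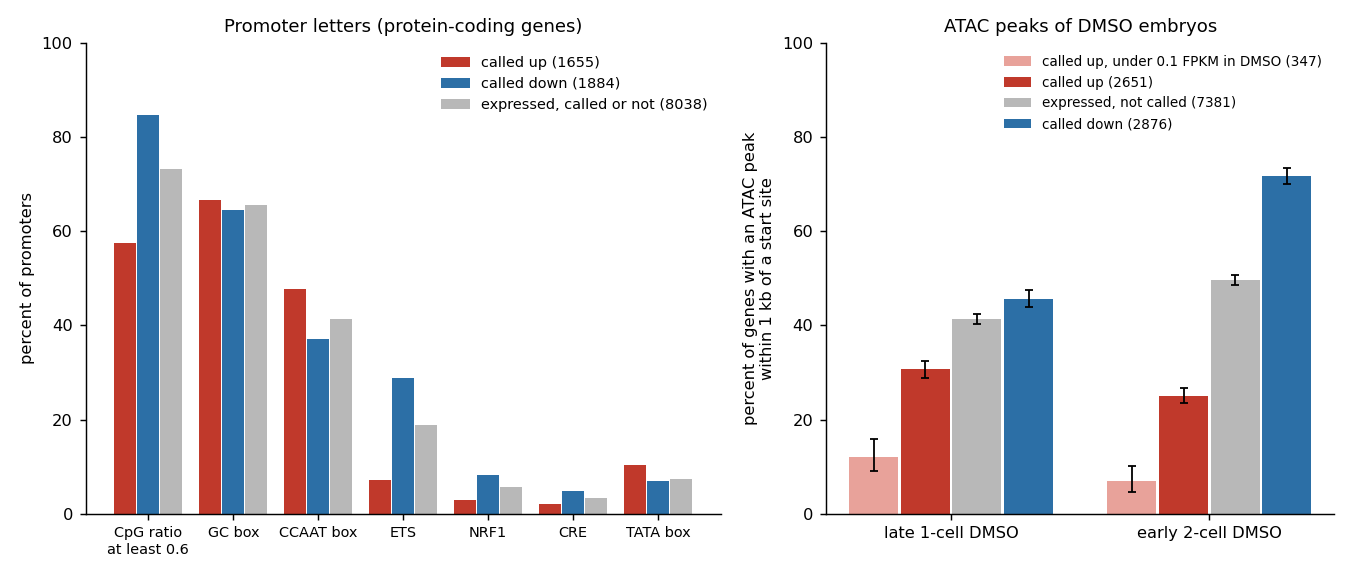
Left, percent of RefSeq promoters of protein-coding genes called up (red), called down (blue) or expressed at 1 FPKM or more in either group (grey) that hold each motif on either strand or a CpG ratio of at least 0.6. Right, percent of protein-coding genes with an ATAC peak within 1 kb of a start site in late 1-cell and early 2-cell DMSO embryos, with 95% Wilson intervals; for early 2-cell peaks the bars run from 6.92% for genes called up from under 0.1 FPKM to 71.8% for genes called down.

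Genes known to answer HDAC inhibitors in other cells responded in part. Cdkn1a, which encodes the cell cycle inhibitor p21, rose from 8.72 and 10.2 to 39 and 34.1 FPKM (1.61 ± 0.14, edgeR adjusted p = 4.19e-06). Cdkn1c, the imprinted gene for p57, rose from 9.1 and 6.43 to 148 and 152 FPKM (4.07 ± 0.11, adjusted p = 2.60e-09). In all, 6 of the 12 listed genes (50%) rose, including Gsn (5.31) and Thbs1 (5.69), beside 13.8% of all genes tested. H1f0, a linker histone gene, had 47.4 and 48.5 FPKM after TSA against 32.6 and 33.6 and was not called (0.18 ± 0.09), and the metallothioneins Mt1 and Mt2 fell (-1.76 and -1.96). Among p53 targets and cell cycle inhibitors 10 of 28 (35.7%) rose, such as Gadd45g (3.33) and Eda2r (3.46). In this list 3 (10.7%) fell, including the cell death gene Bax (-2.32), a share below the 13.9% of all genes called down.

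The gains were spread over transcription factors of later development. Of 45 homeobox genes of the Lhx, Nkx, Irx, Dlx, Msx and sine oculis (Six2 and its relatives) families, 42 could be tested. Of these, 31 were called up and none down, beside 13.8% of all genes and 23% of those at 0.1 to 1 FPKM in DMSO called up. Their summed level was 338 and 297 FPKM after TSA and 35.8 and 33 in DMSO. Lhx6, a factor of cortical interneurons, rose from 0.16 and 0.18 to 16.13 and 19.06 FPKM (6.93 ± 0.25, edgeR adjusted p = 9.78e-09). Six2, of kidney progenitors, was at 0 in both DMSO libraries and at 3.2 and 3.2 FPKM after TSA, at least 39.8-fold higher against a floor of 3 counts per library. Of 39 Hox genes 19 rose (54.3% of those tested) and none fell. Hoxa9 went from 0.65 and 0.15 to 17.6 and 20.9 FPKM (6.53 ± 0.40) and Hoxc10 from 0 in both DMSO libraries to 6.29 and 6.08 FPKM, at least 72.3-fold. A gene of these lists could pass the filter on counts through the TSA libraries alone, so no median is given for lists that are near 0 in DMSO. Genes with a mean under 1 FPKM in DMSO could also not be called down. In each DMSO library only 8 of the 45 homeobox genes and 1 of the 39 Hox genes were at 1 FPKM or more.

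Most other families of lineage factors had more calls up than down, but not all. For comparison, 13.8% of all genes tested and 23% of those at 0.1 to 1 FPKM in DMSO were called up. Genes under 1 FPKM in DMSO could not be called down. Sox factors rose in 11 of 19 tested cases (57.9%). Sox2, a gene of the inner cell mass and of neural progenitors, was at 18.5 and 16.5 FPKM after TSA against 4.15 and 1.91 (2.17 ± 0.30, edgeR adjusted p = 1.50e-04), while Sox13 fell from 13.6 and 11.8 to 2.17 and 2.41 FPKM. Gata2, a factor of trophoblast and blood, rose from 3.05 and 3.35 to 109.7 and 111 FPKM (4.73 ± 0.10, adjusted p = 1.11e-09). Gata3 and Gata6 rose as well (2.64 and 2.42), whereas Gata1 and Gata4 fell, Gata4 from 57.8 and 49.9 to 12.3 and 11.5 FPKM (-2.53 ± 0.11). Pax6, the eye and forebrain factor, rose from 2.81 and 1.98 to 44.8 and 44 FPKM (3.65 ± 0.15, adjusted p = 1.93e-08), and 3 of 8 tested Pax genes (37.5%) were called up and none down. Neural bHLH genes rose in 10 of 21 tested cases (47.6%), and forkhead genes in 14 of 40 (35%), with 1 forkhead gene called down. T-box genes were called up in 5 (33.3%) and down in 2 of 15 tested cases, and their summed level was 117 and 111 FPKM after TSA against 161 and 157 in DMSO. Klf factors were called up in 3 and down in 3 of 17 cases (17.6% each). Olig2, a factor of oligodendrocytes and motor neurons, rose from 0.02 and 0 to 8.14 and 6.95 FPKM.

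**Figure D4:**
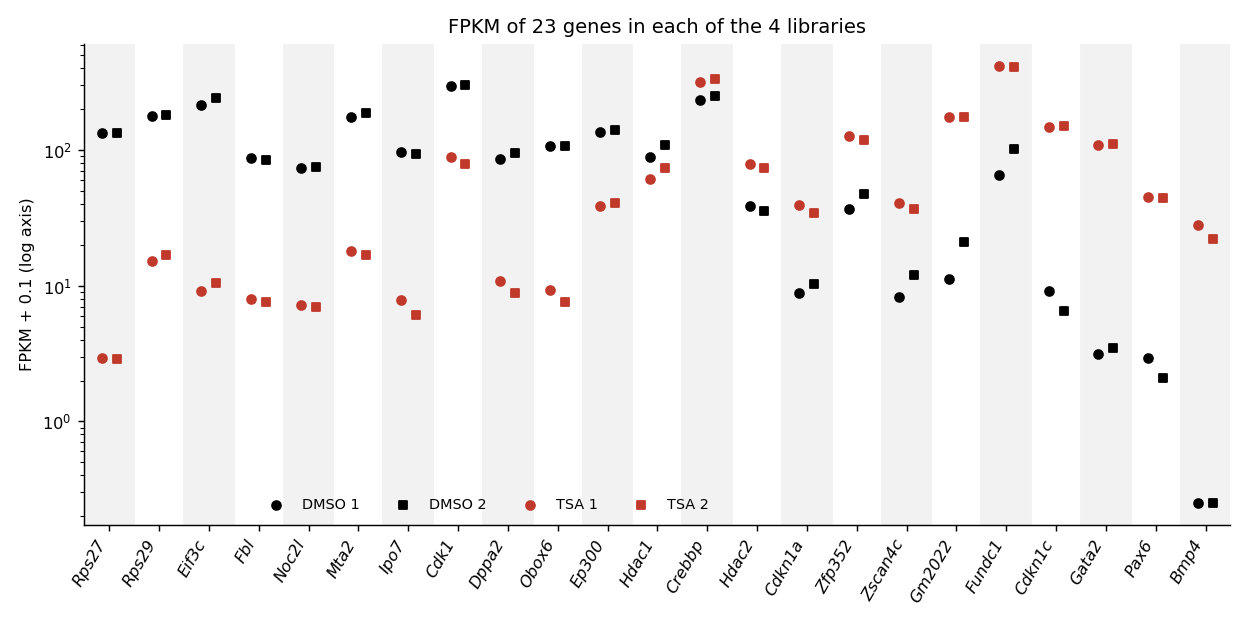
FPKM + 0.1 on a log axis of 23 genes named by the rule, in the 2 DMSO libraries (black) and the 2 TSA libraries (red), with replicate 1 as circles and replicate 2 as squares. From Rps27 to Hdac1 the red points lie below the black ones, from Hdac2 to Bmp4 above, and for Crebbp the red points lie above although the edgeR change is near 0.

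The 10 protein-coding genes with the largest gains among those at 10 FPKM or more after TSA were all under 0.5 FPKM in both DMSO libraries. Fitted fold changes of genes with 5 or fewer counts in DMSO, such as Grhl3, depend on edgeR's prior count. S100a6, a calcium-binding protein of many epithelial and stromal cells, was at 0 in both DMSO libraries and at 12.9 and 12.2 FPKM after TSA, at least 32.8-fold. Grhl3, of surface epithelium, rose from 0 and 0.06 to 12.3 and 15.3 FPKM (8.42 ± 0.47, edgeR adjusted p = 1.69e-07). Lipa, Pimreg, Adgrb1, Ankrd34b, Lhx6 and Insl6 were also among the 10, with log2 fold changes from 6.84 for Insl6, a relaxin-family hormone, to 7.92 for Pimreg. At the other end, the 10 largest falls of the same kind included Stmn3, a neuronal microtubule regulator (32.4 and 29 to 0.55 and 0.98 FPKM, -5.66 ± 0.27), Pagr1a (-7.68), Pmm2, a mannose enzyme of glycosylation (-5.48), and the multicopy genes Trim43c (-4.75) and Gm3286 (-4.72), besides Rps27, Kcnk6, Psmb5, Pramel7 and Gins3.

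Lists of patterning signals had more calls up than down, but genes under 1 FPKM in DMSO could not be called down. Wnt ligands were called up in 7 of 16 tested cases (43.8%), beside 13.8% of all genes tested and 23% of those at 0.1 to 1 FPKM in DMSO. None of the 19 listed reached 1 FPKM in either DMSO library, so none could be called down. Wnt16 had 11.5 and 11.2 FPKM after TSA against 0.1 and 0.12 (5.17 ± 0.36, edgeR adjusted p = 9.25e-07). Bmp, Gdf and Inhibin ligands rose in 6 of 24 tested cases (25%), and Bmp4, a signal of mesoderm and germ cell induction, reached 28 and 21.8 FPKM from 0.15 and 0.15 (6.19 ± 0.33, adjusted p = 1.25e-07). Hedgehog, Notch and Delta genes rose in 10 of 23 cases, among them the Notch ligands Dll1 (3.22) and Dll4 (4.11), while Dll3 was called down (-1.57, not without TSA replicate 1 or DMSO replicate 1). Fgf ligands went both ways, since 6 of 18 tested (33.3%) rose, such as Fgf11 (6.16), and Fgf4, the ligand that patterns the inner cell mass, fell from 15 and 18.7 to 2.85 and 3.53 FPKM (-2.48 ± 0.18). Ephrins and Eph receptors rose in 8 of 22 cases, led by Epha2 (4.74).

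Lists of genes of differentiated tissues differed in how many members were called up, beside 13.8% of all genes tested. By level in DMSO, 14.9% of genes under 0.1 FPKM, 23% at 0.1 to 1 and 18.3% at 1 to 5 were called up. Several of the shares below lie near these, and whether the lists differ from other genes of their level was not tested. Potassium channels rose in 21 of 92 listed cases, 27.3% of those tested, with Kcnj10 going from 0.14 and 0.15 to 19.3 and 18.2 FPKM (6.61 ± 0.16, edgeR adjusted p = 1.93e-09), and fell in 1, Kcnk6, which dropped from 20.6 and 21.9 to 0.56 and 0.59 FPKM (-5.57 ± 0.15). Cadherins and protocadherins rose in 19 of 92 cases (21.6% of those tested). None fell, but only 9 and 10 of the 92 were at 1 FPKM or more in the DMSO libraries, and genes under it could not be called down. The clustered gene Pcdhb2 was at 16.9 and 14.2 FPKM against 0.24 and 0.15 (5.25 ± 0.29). Of the members tested, keratins rose in 23.3% (7 genes), muscle contractile genes in 24.4% (10), claudins in 37.5% (6) and interferon-stimulated genes in 30% (12), while 3 of the last fell. Collagens rose in 4 of 41 tested cases (9.76%) and glutamate, GABA, glycine and acetylcholine receptors in 7 of 57 (12.3%), both below the share of all genes. Desmin (Des), the intermediate filament of muscle, went from 0.07 and 0.01 to 4.72 and 6.21 FPKM (7.27 ± 0.48), and Krt19 from 0 in both DMSO libraries to 7.37 and 6.65 FPKM, at least 36.8-fold. Olfactory and vomeronasal receptors rose in 12 of 135 tested cases (8.89%) out of 1420 listed, also below that share. The Polycomb targets that the study listed rose in 44 of 386 tested cases (11.4%) out of 1917 listed, and fell in none. They had been picked for being silent in preimplantation embryos, which leaves them few chances of a call down.

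Markers of other cells that could travel with embryos moved in part, and their part in the results was not tested. Of 10 fibroblast markers 4 rose (Postn, Thy1, Col1a1 and Pdgfra), and their summed level was 26.8 and 25.1 FPKM after TSA against 6.94 and 7.88, but Dcn, Lum and Fap were at 0 in all 4 libraries. Of 10 leukocyte markers 4 rose, with a summed level of 15.5 and 16.1 against 2.55 and 2.73 FPKM, while Tyrobp and Fcer1g were at 0 in all 4. The alpha-globins Hba-a1 and Hba-a2 rose, Hba-a2 from 0.57 and 1.29 to 35.4 and 39.8 FPKM (4.97 ± 0.39), with an uncertain split of reads between these near-identical genes, but the beta-globins Hbb-bs and Hbb-bt were at 0 in all 4 libraries. Among cumulus cell markers only 1, Amhr2, had a mean of 1 FPKM or more in either group, so no other could be called. Amhr2 fell from 11 and 12.7 to 2.5 and 2.07 FPKM (-3.01). Of 11 markers tested, 8 had log2 fold changes above 0 and 3 below. The summed levels, 6.17 and 5.57 FPKM after TSA and 12.6 and 14.4 in DMSO, therefore fell through Amhr2. It was at 0 and 0.2 FPKM in zygotes and at 6.95 and 10.67 in late 2-cell DMSO embryos of the A-485 experiment. No sperm marker was called.

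The multicopy genes of the 2-cell embryo split into gains and losses, beside 13.8% of all genes tested called up and 13.9% called down. Zscan4 genes were called up in 7 of 9 cases and never down, and their summed level was 459 and 339 FPKM after TSA against 136 and 131 in DMSO. Zscan4c, a marker of the minor wave, had 40.8 and 36.7 against 8.13 and 11.8 FPKM (1.60 ± 0.17, edgeR adjusted p = 1.77e-05), and Zscan4d had 27.1 and 21.1 against 12.9 and 13.4 and was not called. Zfp352, a zinc finger gene of the early 2-cell embryo, rose from 36.4 and 47.4 to 127 and 119 FPKM (1.20 ± 0.11, adjusted p = 7.71e-06), and Duxf3, the gene for the pioneer factor DUX, from 5.69 and 3.31 to 17.2 and 20.0 (1.65 ± 0.23, adjusted p = 1.65e-04). Of 23 other 2-cell genes 12 rose, led by Gm5039 (3.42), Gm4340 (3.24, not past the threshold with DESeq2) and Gm2022, which went from 11.1 and 20.9 to 177 and 174 FPKM. Gm20765 and Gm21312 had nearly the same values in every library (327 and 245 and 327 and 248 FPKM after TSA), and the split of reads between near-identical copies of such families is uncertain. With Gm8332, Fundc1 and mt-Co3 they were the 5 protein-coding genes with the largest gain in FPKM among those called up, Fundc1, a mitophagy receptor gene, going from 65.3 and 103 to 418 and 412 (1.94 ± 0.17).

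Against these gains, other genes typical of the 2-cell embryo fell. Dppa2 and Dppa4, partners that act upstream of Dux in stem cells, dropped from 85.4 and 94.6 to 10.8 and 8.7 FPKM (-3.59 ± 0.12, edgeR adjusted p = 7.79e-09) and from 289 and 287 to 27.3 and 36.1 (-3.16 ± 0.10). Nr5a2, an orphan nuclear receptor of the major wave, fell from 83.6 and 79.3 to 25.8 and 19.9 FPKM (-2.34 ± 0.10, adjusted p = 2.41e-08). Obox homeobox genes went both ways, with 11 of 30 up, such as the copy Obox4-ps12 from 0 in both DMSO libraries to 10.1 and 6.65 FPKM, and 9 down, such as Obox6 from 107 and 107 to 9.15 and 7.45 (-4.04 ± 0.12). Pramel7 fell from 135 and 154 to 7.5 and 5.36 FPKM (-4.82 ± 0.17, adjusted p = 8.79e-09) and Pramel6 fell too (-3.85), while Pramef6 rose (1.54). Of 5 Tdpoz genes 1, Tdpoz3, rose (2.32), a share of 20% that lies near the 13.8% of all genes called up. Of the Obox genes tested, 36.7% rose and 30% fell, beside 13.8 and 13.9% of all genes.

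Read against normal development, genes that turn on by the late 2-cell stage were called down more often than up. Of 2628 genes at least 4-fold higher (adjusted p under 0.01) in late 2-cell than in zygote DMSO embryos of the A-485 experiment, which shares no library with the TSA comparison, 1242 were called down and 397 up. Such rising genes made up 38.3% of the genes called down, 12.3% of those called up and 5.84% of those not called. These sets differ in DMSO level, which was not matched here, and genes under 1 FPKM in DMSO could not be called down. Of the rising genes tested, 47.3% were called down. The shares of all genes at 5 to 20 and at 20 to 100 FPKM in DMSO were 25.8 and 40.2%. Genes that fall over the same interval made up 2.49% of the genes called down, 8.16% of those called up and 8.72% of those not called. Genes on neither list, among them genes with changes under 4-fold or levels under 1 FPKM, made up 79.6% of those called up, 59.3% of those called down and 85.4% of those not called. Of the genes called up, 127 (86 protein coding) stayed under 0.1 FPKM in all 8 DMSO libraries of the 3 stages.

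Genes of the minor wave were called up more often than down. Of 30 genes that the study listed as the minor wave of the zygote, 10 rose and 2 fell, and their summed level was 1248 and 1127 FPKM after TSA against 426 and 508 in DMSO. Of 558 genes listed for the minor wave of the early 2-cell embryo, 199 rose and 136 fell, 35.8 and 24.5% of those tested beside 13.8 and 13.9% of all genes, with a median of 0.53. The summed level of the early2C minor ZGA genes was 26970 and 25465 FPKM after TSA and 24634 and 26045 in DMSO, which overlap. The study drew these lists from embryos in which transcription elongation was blocked with DRB against control embryos, and not from the TSA libraries. Of 346 tested genes that normally fall from the early to the late 2-cell stage, 96 rose after TSA and 2 fell.

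The levels by stage put both movements side by side, with no test, since the stages come from another experiment. The cytoplasmic ribosomal proteins summed to 4209.9 and 4130.4 FPKM in zygotes, 3869 and 3636 in early 2-cell embryos, 11820 and 12390 and 12906 and 13036 in the late 2-cell DMSO embryos of the 2 experiments, and 4595 and 4481 after TSA, which is closer to the earlier stages than to the stage-matched DMSO embryos. Zscan4 genes summed to 629 and 615 FPKM in early 2-cell embryos and 136 and 131 in late 2-cell DMSO embryos, and the TSA libraries lay between. Hox genes were at 30.6 and 32.8, 45.4 and 52.2 and 22.1 and 23.1 FPKM over the 3 stages in DMSO and at 115 and 114 after TSA, above every DMSO library.

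**Figure D5:**
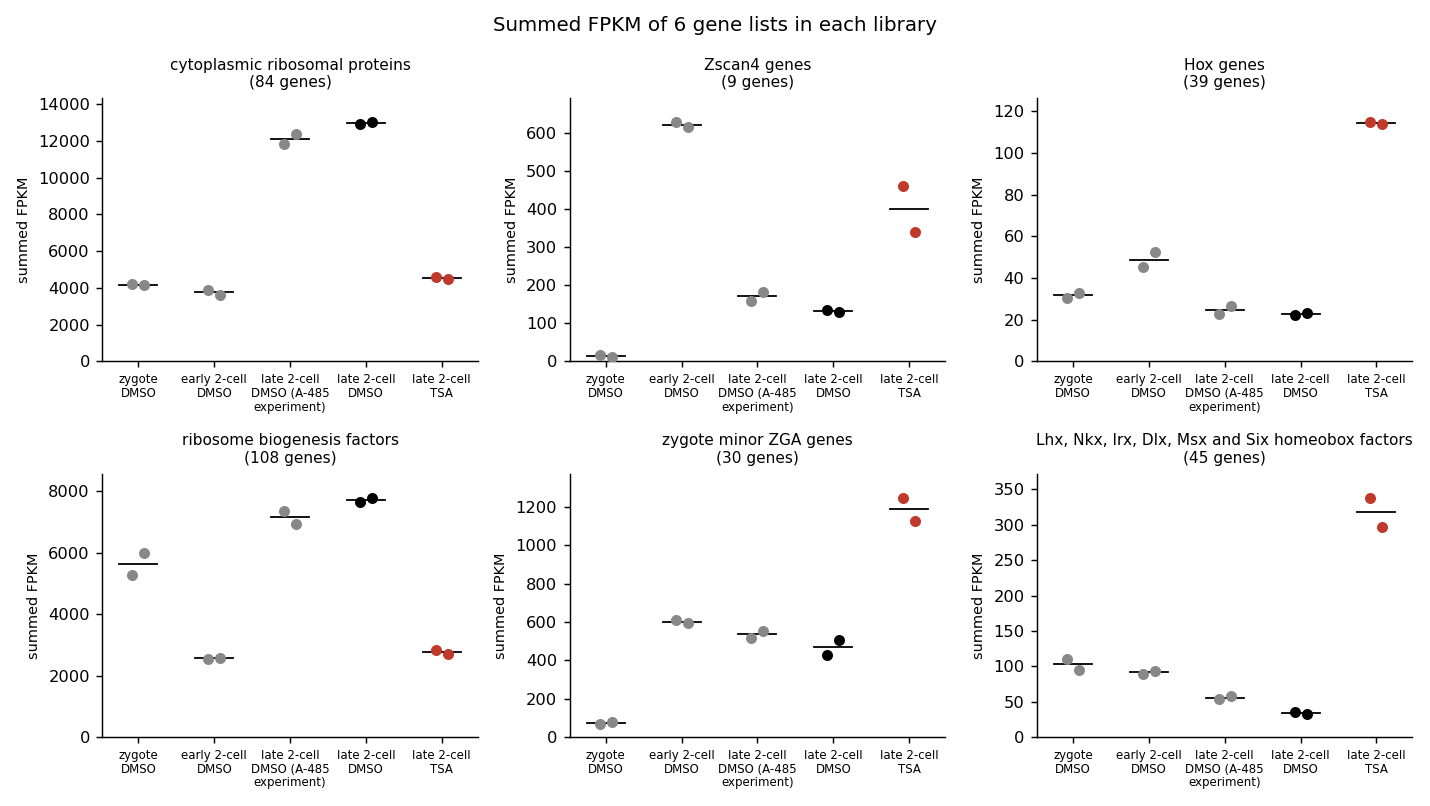
Summed FPKM (vertical axes, from 0) of 6 gene lists in each DMSO library of the A-485 experiment at 3 stages (grey), and of the DMSO (black) and TSA (red) embryos of the TSA experiment, with bars at the mean of 2 libraries. Ribosomal protein genes after TSA lie near the level of zygotes and early 2-cell embryos, Zscan4 genes lie between early and late 2-cell DMSO embryos, and the homeobox lists lie above all DMSO libraries.

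Regulators of pluripotency and the first lineages went both ways. Of 29 such genes 12 rose (41.4%) and 8 fell (27.6%), beside 13.8 and 13.9% of all genes tested. Pou5f1, the gene for OCT4, had 186 and 179 FPKM after TSA against 136 and 139.6 and a log2 fold change of -0.07 ± 0.08, which turned to 0.28 under total-count scaling. Nanog stayed under 1 FPKM in all 4 libraries. Cdx2, the trophectoderm factor, rose from 0.11 and 0.04 to 1.14 and 1.12 FPKM (3.54 ± 0.70, edgeR adjusted p = 0.00192), and the trophectoderm keratins Krt8 (3.61) and Krt18 (3.47) rose with it, while Dppa3, a maternal and pluripotency gene, fell from 1102 and 1089.5 to 409 and 424 FPKM (-1.75 ± 0.06). Imprinted genes rose in 15 of 38 cases (39.5%) and fell in 5 (13.2%, near the share of all genes). H19 went from 0 and 0.18 to 6.41 and 5.3 FPKM and Ndn rose as well (6.38), while Igf2r and Usp29 fell (-2.37 and -3.08).

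Metabolic lists went both ways, beside 13.8% of all genes tested called up and 13.9% called down. Nucleotide synthesis and respiratory chain genes had more calls down than up, and cholesterol synthesis and glycolysis more up than down. The 37.9% of respiratory chain genes called down lay below the 40.2% of genes at 20 to 100 FPKM in DMSO. Cholesterol synthesis genes rose in 10 of 22 cases and none fell, with a median of 0.75. Msmo1 and Sc5d, enzymes of its late steps, rose from 8.49 and 7.87 to 73.6 and 80.2 FPKM (2.85 ± 0.17, edgeR adjusted p = 2.95e-07) and from 2.59 and 3.84 to 27.7 and 26.4 (2.99 ± 0.17). Glycolysis genes rose in 9 of 21 cases and fell in 1, and the hexokinase genes Hk1 (3.48) and Hk2 (3.44) were among those that rose. Immediate early genes, which answer growth factors and stress within minutes in other cells, rose in 15 of 24 cases, with Fos at 3.83 and 3.65 FPKM against 0.16 and 0.08 and Arc at 8.78 and 5.45 against 0.01 and 0, and Jund fell (-1.60). The stress factor Atf3 rose from 0.24 and 1.51 to 38.1 and 38.1 FPKM (5.45 ± 0.34), while Trib3 and Ppp1r15a of the integrated stress response fell (-1.98 and -1.72).

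Late 2-cell embryos treated with A-485 from 4 to 20 h after fertilization at 10 µM are the most similar comparison of the series, with DMSO libraries of their own, another inhibitor, dose and window, so differences are between experiments as well as drugs. There, 2406 of 22822 genes (10.5%) were called up and 3824 (16.8%) down. Of the genes called down after TSA and tested in both, 74.2% (2401 of 3235) were also called down after A-485, out of 3824 called down there, and 12 were called up. Of the genes called up after TSA, 26% (780 of 3003) were also called up after A-485, out of 2406 called up there, and 206 were called down. A test of the difference between the changes after TSA and after A-485 called the TSA change higher in 2868 of 26554 genes (10.8%) and lower in 718 (2.7%).

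Many minor-wave genes differed between the experiments. All 9 Zscan4 genes had a higher change after TSA than after A-485, and Zfp352 had log2 fold changes of 1.20 and -2.22 (difference 3.53 ± 0.23, edgeR adjusted p = 5.83e-09). Of the 558 early 2-cell minor-wave genes, 366 had a higher change after TSA and 7 a lower one. Gata2 rose by 4.73 after TSA and had 1.08 after A-485 (difference 3.77 ± 0.31, adjusted p = 8.15e-08), and Cdkn1a had 1.61 and -1.12 (adjusted p = 1.88e-05). Cholesterol synthesis genes had a higher change after TSA in 11 of 22 cases and glycolysis genes in 10 of 21. For Hox genes the change was higher after TSA in 2 and lower in 1, for neural bHLH genes in none, and for Pax6 the changes of 3.65 and 3.75 did not differ past the threshold (difference 0.01 ± 0.29, adjusted p = 1). Ribosomal protein genes fell in both, with medians of -2.07 after TSA and -2.76 after A-485, and 30 of 84 had the higher change, that is the smaller loss, after TSA.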

How the data were processed

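Total RNA-seq libraries (SMART-Seq Stranded kit, paired-end) had been made from pools of embryos. Per the submitters' processing notes and the study's methods, the authors trimmed reads with Trimmomatic 0.39, aligned them with STAR 2.7.8a to GRCm38 and estimated levels with RSEM 1.3.1. The deposited values used here are expected counts per gene, which are not normalized and were rounded to whole numbers, and FPKM, which the authors' pipeline scaled to transcript length and mapped fragments. The authors made the ATAC-seq peak lists with the ENCODE pipeline and deposited them with a fold enrichment per peak, of which only the positions were used.

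Genes whose counts in the 4 libraries added up to 10 or more were fitted with edgeR 4.0.16 (R 4.3.3; TMM scaling, quasi-likelihood test, treatment as the only term), and p-values were adjusted by Benjamini-Hochberg over all genes. A gene was called at adjusted p under 0.05, a 2-fold change and a mean of 1 FPKM in either group. The SE is the log2 fold change over the square root of F. The difference between the TSA and A-485 changes was an interaction term over 8 libraries. Among called genes, those named were the 10 protein-coding genes per direction with the largest change at 10 FPKM or more and no overlap, the 5 per direction with the largest FPKM difference, and up to 3 genes per list and direction. To these came a fixed set of HDAC, acetyltransferase, lineage and oocyte genes. The members and lists were chosen with earlier results of these data known. Scripts were tested on simulated data. Alternatives were DESeq2 1.42.0, other scalings, filters and cutoffs, a replicate block, and leaving out each library. A few genes that these rules name are not reported here.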

Additional observations from a re-analysis of the deposited data

How the results depend on the processing

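DESeq2 called 3023 genes up and 3139 down, against 3237 and 3247 with edgeR, and leaving out 1 library gave 2892 to 3128 up and 3077 to 3185 down. Without an FPKM cutoff 4312 rose and 3387 fell, and with a mean of at least 5 FPKM 1490 rose. Genes switched on numbered 467 at under 0.1 FPKM and 1425 at under 0.5, and those switched off 29 and 130. The labels do not say what a replicate number marks. Same-numbered deviations had r = 0.106 over 12660 genes, and log2 FPKM correlated at 0.8764 and 0.8745 in same-numbered TSA and DMSO libraries against 0.8574 and 0.859 in the others, a hint from the data only. A replicate block gave 3269 up and 3295 down, and 3044 higher and 781 lower changes than after A-485. Scaling to mitochondrial genes moved that difference from 2868 to 5238 higher and from 718 to 326 lower, and leaving out 1 library gave 2275 to 2932 higher and 439 to 725 lower, the lowest without DMSO replicate 1. With early 2-cell embryos in place of zygotes, rising genes were called down in 78.3% rather than 47.3% and falling genes up in 27.7% rather than 14.5%, which became 11.6% at a 2-fold cutoff. Within 2.5 kb in place of 1 kb, peaks lay near 30.3% of genes called up and 80% of those called down. Total-count scaling turned Crebbp to 0.32, Klf5 to 0.092 and Pou5f1 to 0.28. Without 1 library, the list median less that of all genes ran from -0.124 to 0.103 for Klf factors, from -0.041 to 0.255 for Obox genes, from -0.072 to 0.28 for pluripotency regulators, from -0.434 to 0.1 for BCL2 family and caspases and from -0.253 to 0.061 for lysosome genes. The cause of these shifts was not tested. With 2 libraries per group, the spread rests on few samples.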

Other observations

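The X chromosome held a larger share of genes called up than any autosome, a comparison made after the values were seen. Of 924 X-linked genes tested, 219 (23.7%) were called up and 77 (8.33%) down after TSA, beside 13.5% up and 14.1% down over the autosomes, where the share called up ran from 11.4 to 15.4% over 19 chromosomes. Members of the multicopy Xlr family, which are expressed in lymphoid and germ cells, were called up in 11 of 13 cases and never down. Xlr4b went from 6.77 and 7.31 FPKM in DMSO to 30.9 and 33.6 after TSA (log2 fold change 1.88 ± 0.20, edgeR adjusted p = 2.27e-05). The split of reads between Xlr copies is uncertain. Rhox homeobox genes of the reproductive tract rose in 5 of 11 cases (45.5%) and Mage genes in 7 of 20 (35%). Level in DMSO was not matched between X-linked and autosomal genes, and 23% of all genes at 0.1 to 1 FPKM in DMSO were called up. Xist, the noncoding RNA that coats the inactive X, went from 0.38 and 0.96 FPKM to 2.97 and 1.6 (1.39 ± 0.21), and Tsix, its antisense partner, rose as well (2.19). After A-485, 17.2% of X-linked genes were called up beside 10.3% of autosomal genes. Whether the sex ratio of the pooled embryos differed was not tested.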
